A study of Mus musculus with 7 samples.

Results

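The genes examined here encode structural proteins of central nervous system myelin: Mbp, Mog, Mag, Mobp and Cnp. They were chosen by symbol, with earlier results of these data known, and are 5 of the 55450 genes and 37 of the 141767 transcripts in the per-library tables. All libraries were made from polyadenylated RNA of whole cerebella of C57BL/6 mouse pups at postnatal day 15 (P15). The 4 libraries of the L3mbtl3 KO/+ group came from 4 mice with 1 knockout and 1 intact allele of L3mbtl3, a gene for a chromatin protein with MBT domains. The other 3 libraries came from wild-type (WT) cerebella with both alleles intact. The comparison asks how the transcripts of the myelin sheath stand in the cerebellum when 1 allele of L3mbtl3 is lost. The labels give neither the deleted part of the gene nor the litters. The p-values treat the libraries as independent, which could not be checked without the litters.

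Myelin is a stack of oligodendrocyte membrane wrapped around an axon. MBP holds the cytoplasmic faces of the membrane together, and its mRNA is carried in granules to the sheath and translated there. MOBP is a small basic protein of the same compact layers. CNP is an enzyme of the non-compacted cytoplasm, known in mice to keep channels open through the sheath. MAG, a sialic acid-binding adhesion protein, lies on the innermost membrane next to the axon, and MOG on the outermost surface. In the mouse cerebellum, myelination of the white matter is under way in the postnatal weeks, and its transcription is driven by SOX10 and MYRF.

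Gene totals ran from 29248360 to 43761792 expected counts per library. L3mbtl3 itself stood at 7.88, 7.42, 10.3 and 10.9 TPM (transcript abundance scaled for length and library) in KO/+ replicates 1 to 4, against 9.77, 12.7 and 10.0 TPM in WT replicates 1 to 3, so that the genotypes overlapped. Markers of cerebellar granule neurons were abundant throughout, with Gabra6 between 512 and 888 CPM (counts scaled to library size), while hindbrain Hox genes did not exceed 0.203 CPM. WT replicate 3 stood apart: Tcf7l2, a transcription factor gene of differentiating oligodendrocytes and of thalamic and midbrain neurons, was at 49.2 CPM there and between 3.07 and 5.58 CPM in the other 6 libraries. Tph2, the serotonin synthesis gene of brainstem neurons, was at 6.17 CPM there and between 0.913 and 1.27 CPM elsewhere. The summed CPM of 6 choroid plexus genes also divided the libraries, at 689 to 1399 in KO/+ replicates 1 to 3 and 985 in WT replicate 2, against 6.60 in KO/+ replicate 4 and 5.36 and 16.5 in WT replicates 1 and 3. Results are therefore also given without WT replicate 3.

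The sequence before the start of 4 of the genes, all except Mbp, is shown, and its relation to their levels was not tested. Each is the RefSeq promoter entry (GRCm38.p6), ended at the most upstream annotated start, with matches to a MYRF-type motif (CTGGCAC or CTGGTAC) or a SOX-type motif (ACAAAG) on either strand in capitals. Mag has 3 such entries, and the most upstream is used here.
Mog, chr17:37023399-37023648, minus strand: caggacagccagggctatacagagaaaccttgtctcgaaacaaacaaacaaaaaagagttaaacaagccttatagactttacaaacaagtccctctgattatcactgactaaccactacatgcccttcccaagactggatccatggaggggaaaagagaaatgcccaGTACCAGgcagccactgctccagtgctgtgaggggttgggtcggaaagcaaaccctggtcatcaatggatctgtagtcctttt
Mag, chr7:30914923-30915172, minus strand: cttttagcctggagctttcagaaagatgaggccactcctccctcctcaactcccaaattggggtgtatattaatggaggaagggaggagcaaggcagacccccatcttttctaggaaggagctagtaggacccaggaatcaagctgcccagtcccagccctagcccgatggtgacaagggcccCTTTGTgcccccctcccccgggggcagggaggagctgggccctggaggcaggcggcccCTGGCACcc
Mobp, chr9:120149492-120149706, plus strand: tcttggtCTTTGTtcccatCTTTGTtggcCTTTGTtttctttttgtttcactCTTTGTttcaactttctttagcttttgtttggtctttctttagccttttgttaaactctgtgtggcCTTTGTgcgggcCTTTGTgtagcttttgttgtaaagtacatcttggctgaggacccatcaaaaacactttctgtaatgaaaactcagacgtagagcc
Cnp, chr11:100574689-100574903, plus strand: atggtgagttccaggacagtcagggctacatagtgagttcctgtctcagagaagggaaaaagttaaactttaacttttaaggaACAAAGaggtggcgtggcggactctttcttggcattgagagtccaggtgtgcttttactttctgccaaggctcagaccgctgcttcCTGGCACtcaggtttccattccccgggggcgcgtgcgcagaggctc

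In the full windows of 300 bases, the MYRF-type motif was found once each in Mog, Mag and Cnp and not in Mobp. It starts 83 bases before the RefSeq start in Mog, 9 bases before it in Mag and 81 bases before it in Cnp. Of all 32851 RefSeq promoter windows, 7.10% hold it. The SOX-type motif was found once in Mag, once in Cnp, not in Mog, and 6 times in Mobp, in a stretch rich in CTTTG. It occurs in 18.7% of all windows, and Mobp is the 1 window of the 32851 with as many as 6 matches. The pair of motifs do not overlap in any of the 4 windows, and a match describes the letters only.

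The 5 genes were among the abundant transcripts of the tissue and varied together from library to library, without following genotype. Mbp was at 5569, 7775, 7244 and 4349 TPM in KO/+ replicates 1 to 4, against 5888, 5429 and 9036 TPM in WT replicates 1 to 3. The highest library, WT replicate 3, and the lowest, KO/+ replicate 4, came from different genotypes, and the groups overlapped. Mobp was at 810, 1182, 1014 and 512 TPM in KO/+ libraries, against 711, 640 and 1307 TPM in WT libraries. Cnp was at 623, 782, 735 and 483 TPM in KO/+ libraries, against 594, 526 and 901 TPM in WT libraries. Both genes had the same highest and lowest libraries as Mbp. Mag stood at 366, 494, 526 and 344 TPM in KO/+ libraries, against 507, 419 and 804 TPM in WT libraries. Mog stood at 182, 256, 233 and 107 TPM in KO/+ libraries, against 149.6, 145 and 273 TPM in WT libraries. In both genes WT replicate 3 was again the highest and KO/+ replicate 4 again the lowest, and the genotypes overlapped.

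**Figure D1:**
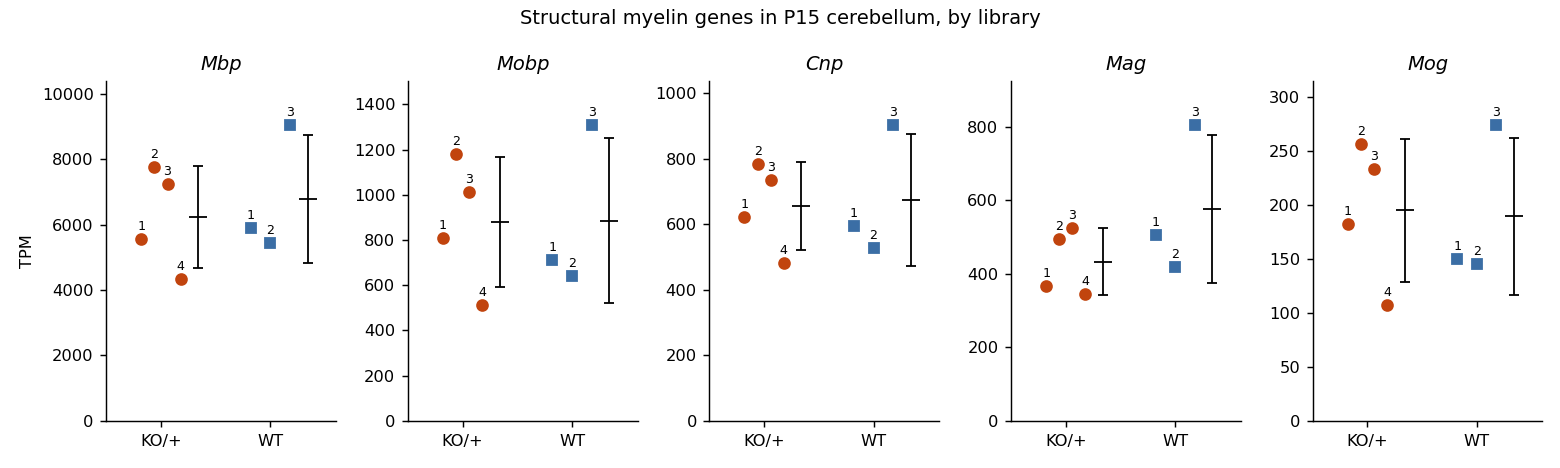
TPM of each gene (y axis, from 0) in the 4 KO/+ libraries (circles) and the 3 WT libraries (squares), numbered by replicate, with the mean and SD of each group as a black bar. In every panel WT replicate 3 is the highest library and KO/+ replicate 4 the lowest, and the genotypes overlap.

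The order of the levels was Mbp, Mobp, Cnp, Mag and Mog, from high to low, in all 7 libraries. Across libraries the ranges of Mobp (512 to 1307 TPM) and Cnp (483 to 901 TPM) overlapped, as did those of Cnp and Mag (344 to 804 TPM). The ranges of Mbp and Mobp did not overlap, nor did those of Mag and Mog. Summed over the 5 genes, the level was 7551, 10489.8, 9752 and 5795 TPM in KO/+ libraries and 7849, 7159.5 and 12321.5 TPM in WT libraries, or between 0.580% and 1.23% of all TPM. In a bulk sample, fewer oligodendrocytes and less myelin RNA per oligodendrocyte cannot be told apart.

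None of the 5 genes passed the test between genotypes. Of the 16813 genes tested with edgeR's quasi-likelihood test, 0 passed a Benjamini-Hochberg adjusted p of 0.05 (0% of genes), and 530 (3.15%) had an unadjusted p under 0.05. Among the 5 genes 0 had an unadjusted p under 0.05, and DESeq2 and limma-voom also called 0 of them. The genotypes did not overlap in TPM in 1.98% of all genes tested with KO/+ lower and in 1.58% with KO/+ higher, and in 0 of the 5.

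Mbp averaged 6234 ± 1569 TPM in KO/+ and 6784 ± 1963 TPM in WT cerebella (SD, n = 4 and 3), with an edgeR log2 fold change of -0.06 (95% interval -0.67 to 0.55; Benjamini-Hochberg adjusted p = 0.981). Mobp averaged 879 ± 288 TPM in KO/+ and 886 ± 367 TPM in WT cerebella, with a log2 fold change of 0.07 (-0.72 to 0.86). Cnp averaged 656 ± 133 TPM in KO/+ and 674 ± 200.1 TPM in WT cerebella, with a log2 fold change of 0.01 (-0.55 to 0.57). The intervals of these 3 genes span 0. Mog averaged 195 ± 66.1 TPM in KO/+ and 189 ± 72.9 TPM in WT cerebella, with a log2 fold change of 0.10 (-0.69 to 0.88). Single libraries of either genotype moved these values. Without WT replicate 3 the log2 fold change was 0.22 for Mbp, 0.47 for Mobp, 0.30 for Cnp and 0.47 for Mog, with edgeR Benjamini-Hochberg adjusted p values of at least 0.602 over all alternatives. Without WT replicate 2 it was -0.22 for Mbp, -0.13 for Mobp, -0.16 for Cnp and -0.08 for Mog. Without KO/+ replicate 2 it was -0.21 for Mbp, -0.13 for Mobp, -0.11 for Cnp and -0.09 for Mog. Without KO/+ replicate 4 it was 0.09 for Mbp, 0.26 for Mobp, 0.14 for Cnp and 0.30 for Mog.

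Mag had the lowest of the 5 log2 fold changes, at -0.32 (SE 0.22; 95% interval -0.83 to 0.19; edgeR unadjusted p = 0.191, Benjamini-Hochberg adjusted p = 0.957). It averaged 433 ± 90.8 TPM in KO/+ and 577 ± 201.7 TPM in WT cerebella (SD, n = 4 and 3). Without WT replicate 3 its log2 fold change was -0.03, and without WT replicate 2 it was -0.49. As a share of the summed TPM of the 5 genes, Mag made up 4.85%, 4.71%, 5.39% and 5.94% in KO/+ libraries, against 6.46%, 5.86% and 6.52% in WT libraries. KO/+ replicate 4 lay above WT replicate 2, and the other 3 KO/+ libraries lay below all WT libraries. The ratio of Mag to Mog TPM was 2.01, 1.93, 2.25 and 3.22 in KO/+ libraries, against 3.39, 2.89 and 2.94 in WT libraries, with KO/+ replicate 4 again inside the WT range. These ratios were formed after the values were seen and are descriptions without a test.

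Mbp (GRCm38 chromosome 18, 82475146 to 82585637, plus strand) spans both of its start regions and has 16 annotated transcripts. Apart from the noncoding Mbp-214, which begins downstream of exon 2, they start in the upstream golli region or around the classic start 79324 bases downstream, from which the myelin proteins are made. Golli proteins are known from neurons, immune cells and oligodendrocyte precursors. The golli transcripts Mbp-201, Mbp-205 and Mbp-208 have 750, 585 and 165 coding bases, against 585 in the classic Mbp-209. The classic transcripts differ by exon 2 (82561778 to 82561855, 78 bases) and exon 6 (82578936 to 82579058, 123 bases). They also differ in an exon that ends 100487 bases from the golli start. It begins at 100455 in Mbp-209 and Mbp-211 and at 100389 in Mbp-204, and is absent from Mbp-210 and Mbp-216. The classes below are by exons 2 and 6 only. Forms that hold exon 2 are known to be more prominent early in myelination and to enter the nucleus.

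Transcripts without exons 2 and 6 made up the most of classic Mbp, at 60.8%, 62.5%, 59.6% and 56.4% of its TPM in KO/+ libraries and 57.6%, 58.2% and 60.7% in WT libraries. Nearly all of this was Mbp-211, which stood at 3355, 4824, 4285 and 2428 TPM in KO/+ libraries, against 3361, 3129.7 and 5441 TPM in WT libraries. The groups overlapped in both measures. Transcripts with exon 6 only held 17.8% to 19.2% in KO/+ libraries and 17.95% to 18.4% in WT libraries, mainly as Mbp-212. Those with both exons held 12.6% to 15.4% in KO/+ libraries and 13.9% to 15.96% in WT libraries, mainly as Mbp-209. Mbp-209 is a model of 638 bases that lacks most of the last exon, so its share depends on how reads were divided between overlapping models.

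The exon 2 share of classic coding Mbp TPM was 21.4%, 19.7%, 22.4% and 24.4% in KO/+ libraries, against 24.0%, 23.8% and 21.3% in WT libraries. The lowest and the highest shares were both from KO/+ libraries, and the genotypes overlapped. The means were 21.98% ± 1.98 in KO/+ and 23.1% ± 1.54 in WT cerebella (SD, n = 4 and 3), a difference of -1.07 percentage points (two-sided exact permutation test, p = 0.571), or -1.96 without WT replicate 3. With 35 ways of labelling 4 of the 7 libraries the smallest two-sided p is 0.0571, so that none of the 3 shares tested in this way could reach 0.05. The share was highest in KO/+ replicate 4, where Mbp was lowest, and lower in KO/+ replicate 2 and WT replicate 3, where Mbp was highest. KO/+ replicate 1 departed from this order. With Mbp at 5569 TPM its share was 21.4%, near the 21.3% of WT replicate 3, where Mbp was at 9036 TPM. A relation between share and level was not tested.

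Golli transcripts stood at 19.5, 21.8, 24.9 and 23.7 TPM in KO/+ libraries, against 25.97, 24.95 and 25.2 TPM in WT libraries. The groups did not overlap in this sum of 4 transcripts, though KO/+ replicate 3 and WT replicate 2 were next to each other. Of all single transcripts tested, 2.39% lay apart in this direction. The main parts of the sum each overlapped. Mbp-201 was at 9.06 to 11.63 TPM in KO/+ libraries and 10.45 to 14.84 TPM in WT libraries. Mbp-205 was at 9.72 to 12.69 TPM in KO/+ libraries and 9.96 to 13.73 TPM in WT libraries. The summed golli level spread 1.33-fold over the 7 libraries, against 2.08-fold for the classic transcripts. As a share of Mbp TPM, golli made up 0.350%, 0.280%, 0.343% and 0.544% in KO/+ libraries and 0.441%, 0.460% and 0.279% in WT libraries. The groups overlapped in the share, with a difference of means of -0.0135 percentage points (two-sided exact permutation test, p = 0.8), or -0.0707 without WT replicate 3.

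**Figure D2:**
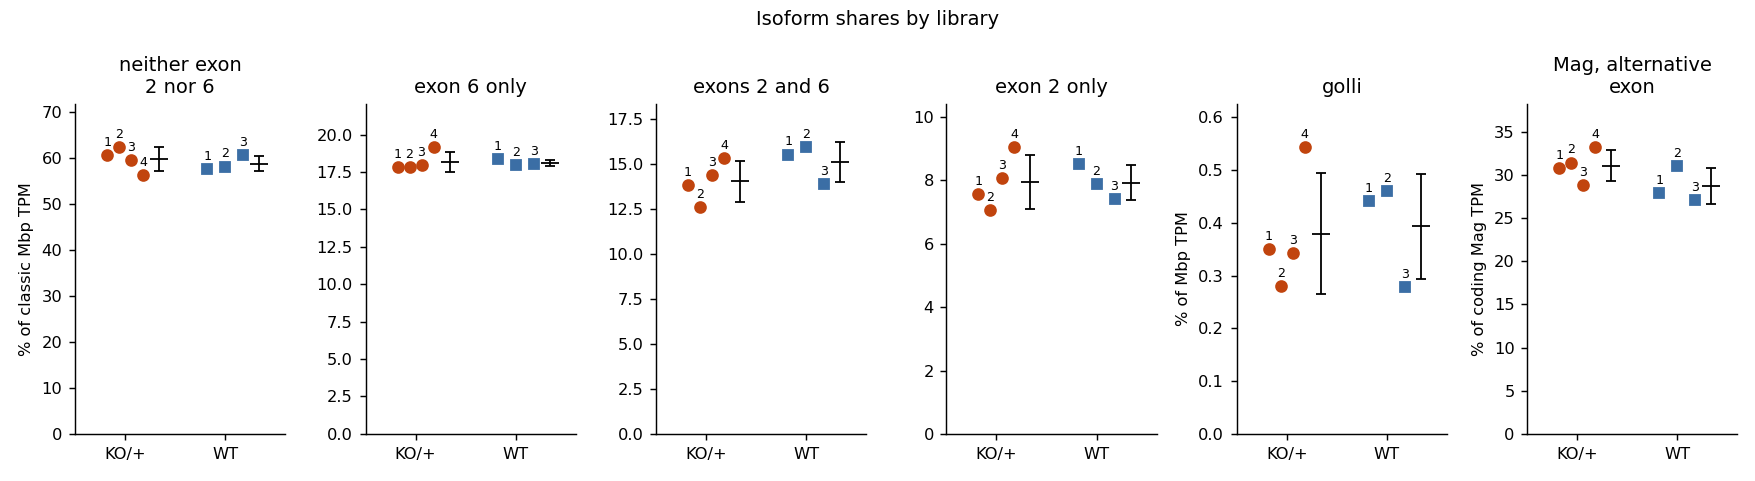
Isoform shares (y axes in percent, from 0) in KO/+ (circles) and WT libraries (squares), numbered by replicate, with the mean and SD as a black bar: the 4 classes of classic Mbp by exons 2 and 6, golli as a share of Mbp, and Mag with the alternative exon as a share of coding Mag. The genotypes overlap in every panel.

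Mbp-216, a classic transcript with exons 2 and 6, was the 1 Mbp transcript of at least 1 TPM whose genotypes did not overlap. Unlike Mbp-209, it lacks the exon that ends 100487 bases from the golli start. It stood at 50.8, 59.4, 69.3 and 56.9 TPM in KO/+ libraries, against 78.1, 70.6 and 81.9 TPM in WT libraries. Every KO/+ library was lower than every WT library, by the narrowest margin in KO/+ replicate 3. Its log2 fold change was -0.33 (SE 0.11; 95% interval -0.59 to -0.06; edgeR unadjusted p = 0.0212, Benjamini-Hochberg adjusted p = 0.9997), against unadjusted p values under 0.05 in 2.71% of all transcripts tested. It was between -0.41 and -0.25 with any 1 library left out. It made up 0.760% to 1.31% of Mbp transcripts in KO/+ libraries and 0.910% to 1.33% in WT libraries, so that the genotypes overlapped in its share.

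Mag (GRCm38 chromosome 7, 30899176 to 30914873, minus strand) has 8 annotated transcripts. They end in different reading frames, which give the short (S-MAG) and the long (L-MAG) cytoplasmic tail. In rodents L-MAG is known to prevail early in development of the central nervous system and S-MAG later. The alternative exon at 30900352 to 30900396 (45 bases) brings an early stop and is held by Mag-203 and Mag-201, while Mag-207 skips it and reads on in the last exon. The coding ends are shown because they are what separates the pair of forms in these data, with the stop codon in capitals (GENCODE M21, GRCm38).
Mag-203, short tail, chr7:30900364-30900396, minus strand: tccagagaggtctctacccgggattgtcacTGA
Mag-207, long tail, chr7:30899531-30899698, minus strand: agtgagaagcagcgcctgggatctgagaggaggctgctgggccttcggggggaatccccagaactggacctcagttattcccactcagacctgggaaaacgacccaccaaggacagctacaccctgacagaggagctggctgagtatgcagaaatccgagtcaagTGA

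The short end adds 30 coding bases before its stop and the long end 165. Mag-203 was at 112.2, 149, 150.4 and 107 TPM in KO/+ libraries, against 140.1, 127 and 209.9 TPM in WT libraries. Mag-207 was at 102, 133, 145 and 97.2 TPM in KO/+ libraries, against 143, 124 and 216 TPM in WT libraries. Both forms were therefore present at similar TPM in each library, and in both the genotypes overlapped. Transcripts with the alternative exon made up 30.8%, 31.5%, 28.8% and 33.3% of coding Mag TPM in KO/+ libraries, against 27.9%, 31.1% and 27.2% in WT libraries. KO/+ replicates 2 and 4 were above all WT libraries, and KO/+ replicates 1 and 3 were below WT replicate 2. The difference of means was 2.40 percentage points (two-sided exact permutation test, p = 0.171, or 0.514 adjusted over the 3 shares), and 1.63 without WT replicate 3.

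Much of the remaining coding Mag was assigned to Mag-205, a fragment with an incomplete end that stops before the alternative exon. It was at 149, 201.4, 224 and 130.1 TPM in KO/+ libraries, against 214.7, 162 and 353 TPM in WT libraries. Since it says nothing of the tail, the share was also taken over transcripts that reach the 3' end, a choice made after seeing the data. It was then 52.4%, 53.7%, 50.9% and 53.8% in KO/+ libraries and 49.3%, 51.0% and 50.01% in WT libraries. KO/+ replicate 3 lay just below WT replicate 2, and the other KO/+ libraries lay above all WT libraries (difference 2.58 percentage points, two-sided exact permutation test, p = 0.114).

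Mobp (GRCm38 chromosome 9, 120149707 to 120181484, plus strand) has 7 annotated transcripts. Its protein-coding forms share a coding exon and differ in the end of the protein, and the noncoding Mobp-205 lacks that exon. Mobp-202, Mobp-203 and Mobp-204 carry a short end and Mobp-201 a longer one, of which the last 90 bases are shown, with the stop codon in capitals (GENCODE M21, GRCm38).
Mobp-202, short end, chr9:120173151-120173190, plus strand: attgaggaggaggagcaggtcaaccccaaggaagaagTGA
Mobp-201, long end, chr9:120168440-120168529, plus strand: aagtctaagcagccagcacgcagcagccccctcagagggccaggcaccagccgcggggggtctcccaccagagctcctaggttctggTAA

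Mobp-204 held most of the Mobp signal, at 77.2%, 76.4%, 70.9% and 70.2% of Mobp transcripts in KO/+ libraries and 69.4%, 69.8% and 71.5% in WT libraries. The share was highest in KO/+ replicates 1 and 2, and KO/+ replicates 3 and 4 lay inside the WT range. Mobp-204 is annotated as a target of nonsense-mediated decay, since its short reading frame is followed by further exons. Its 3' part overlaps Gm38642, a noncoding gene on the same strand, so reads there could belong to either gene. The same holds for the 3' part of Mobp-205, which shares exon sequence with Mobp-204. The long-ended Mobp-201 made up 5.76%, 5.97%, 7.85% and 9.24% of Mobp transcripts in KO/+ libraries, against 8.87%, 8.78% and 7.71% in WT libraries. KO/+ replicate 4 had the highest share of all libraries and KO/+ replicates 1 and 2 the lowest. Mobp-205, a retained intron form, was at 1.78, 3.94, 3.16 and 3.00 TPM in KO/+ libraries and 4.27, 5.24 and 6.28 TPM in WT libraries. All KO/+ libraries were lower, with a log2 fold change of -0.78 (95% interval -1.59 to 0.03; edgeR unadjusted p = 0.0560, Benjamini-Hochberg adjusted p = 0.9997) on 9.71 to 40.6 expected counts per library. Without WT replicate 3 it was -0.58.

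Cnp (GRCm38 chromosome 11, 100574904 to 100591729, plus strand) is known for a pair of start sites. The coding transcript Cnp-201 made up 71.0%, 68.0%, 67.4% and 70.6% of Cnp transcripts in KO/+ libraries and 67.7%, 69.7% and 64.9% in WT libraries. Cnp-204, which starts 620 bases downstream of Cnp-201 and is annotated as a processed transcript, made up most of the rest, at 28.6% to 32.2% in KO/+ libraries and 29.7% to 34.5% in WT libraries. The genotypes overlapped in both shares. The minor Cnp-202 overlaps Dnajc7 on the opposite strand, and the strand setting of the counting is not given in the sources used here. Mbp and Mog also each contain a short noncoding model on the opposite strand, Rpl21-ps8 and Gm22388. Mog (GRCm38 chromosome 17, 37010743 to 37023398, minus strand) was read almost entirely as Mog-201, at 98.9% to 100% of its transcripts in each library.

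Taking the transcripts as a group, 27 of the 37 had a mean of at least 1 TPM over the 7 libraries. Of these, 25 passed the filter on low counts, and 22 of the 25 had a negative and 3 a positive log2 fold change, with a median of -0.17. Transcripts of 1 gene share exons and reads, so these signs are not independent of each other, and leaving out 1 library turned the direction of 16 of the 25 at least once. Without WT replicate 3, 9 were negative and 16 positive, with a median of 0.12. Of the 27 transcripts that passed the filter at any TPM, 2, Mbp-216 and Mobp-205, had TPM values that did not overlap between genotypes, both with KO/+ lower, beside 2.39% of the 44375 transcripts tested in that direction and 1.5% in the other. By isoform percentage, 0 of the 26 that entered the test of isoform use did so in either direction, beside 2.29% with KO/+ lower and 2.25% with KO/+ higher among all 37912 in that test. Of those that did not pass the filter, Cnp-203 and Mbp-207 were also lower in every KO/+ library in TPM and isoform percentage, with at most 1.11 and 5.60 expected counts in a library, and 0 in all 4 and in 3 of the KO/+ libraries. Over all 44375 transcripts edgeR's quasi-likelihood test called 0, with 1201 at an unadjusted p under 0.05, and DESeq2 called 46, of which 0 were among the 25.

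**Figure D3:**
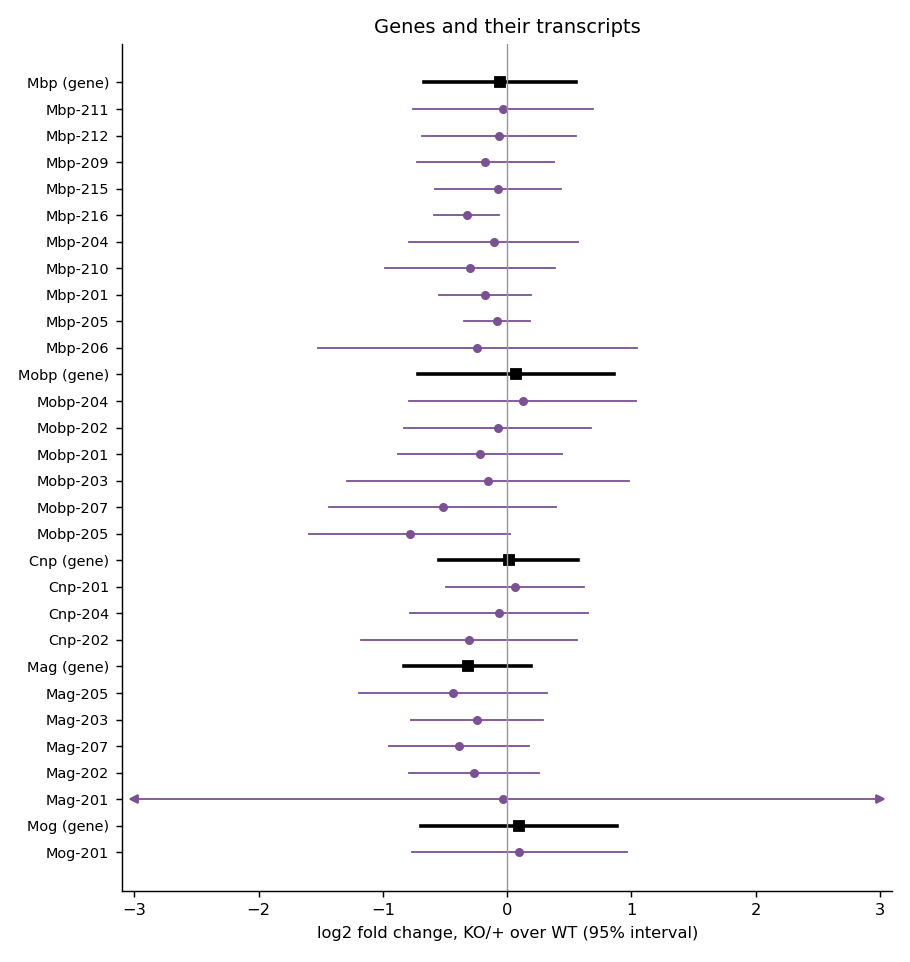
Log2 fold change of KO/+ over WT with its 95% interval (x axis) for the 5 genes (black squares) and their 25 tested transcripts of at least 1 TPM (circles), with arrows where an interval runs past 3. All gene intervals include 0, and among the transcripts the interval of Mbp-216 (-0.59 to -0.06) does not.

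The use of isoforms within a gene was also tested, asking whether a transcript moved differently from the other transcripts of its gene. Mbp, Mobp, Mag and Cnp entered this test and Mog, with 1 transcript past the filter, did not. With edgeR's diffSpliceDGE 0 of the 4 genes were called, and their unadjusted p values were 0.986 for Mbp, 0.795 for Mobp, 0.9989 for Mag and 0.842 for Cnp. Of all 10105 genes in this test 18 were called (0.178%), 380 had an unadjusted p under 0.05 (3.76%), and limma's diffSplice called 0 with 468. On simulated data the edgeR usage test made more false calls than its threshold allows.

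Genes of the wider myelin pathway were read from lists, each described by its counts beside the median log2 fold change of all genes tested, -0.0047. Of the 123 tested list genes edgeR called 0, and 11 had an unadjusted p under 0.05, beside 530 (3.15%) of all 16813 genes. Of 17 other myelin protein genes, 11 had a negative and 6 a positive log2 fold change (median -0.04). The log2 fold change was -0.19 (SE 0.14) for Sirt2, a tubulin deacetylase gene, and -0.18 (SE 0.24) for Pllp, which encodes a myelin membrane proteolipid. Without WT replicate 3 these values were -0.04 and 0.13, so that the direction of Pllp turned. Without WT replicate 3 the list split 3 negative to 14 positive, with a median of 0.31, and without KO/+ replicate 4 it split 4 to 13. Of 14 genes of myelin lipid synthesis, 12 were negative and 2 positive (median -0.13), or 8 and 6 without WT replicate 3 (median -0.06). Among them the desaturase gene Scd2 had a log2 fold change of -0.20 (SE 0.13), or -0.07 without WT replicate 3.

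All 9 oligodendrocyte transcription factor genes had negative log2 fold changes, with a median of -0.26. Myrf, which drives the myelin genes, was at 30.8, 47.5, 55.9 and 46.9 CPM in KO/+ libraries, against 51.4, 55.2 and 84.1 CPM in WT libraries. KO/+ replicate 3 lay above WT replicates 1 and 2, so the genotypes overlapped (log2 fold change -0.49, SE 0.23, or -0.24 without WT replicate 3). Sox8, a relative of Sox10, had a log2 fold change of -0.31 (SE 0.14), or -0.14 without WT replicate 3. Tcf7l2 had one of -2.27 (SE 0.76), and of -0.33 without WT replicate 3. Without that library 6 of the 9 were negative and 3 positive, with a median of -0.03. Of 8 genes for factors that splice or carry Mbp mRNA, 7 were negative (median -0.02), or 4 without WT replicate 2, with Kif1b, a motor that moves Mbp mRNA in zebrafish, at -0.21 (SE 0.10), Hnrnpa2b1 at -0.11 (SE 0.16) and Sfpq at -0.13 (SE 0.16). Without WT replicate 2 Hnrnpa2b1 was at 0.000392.

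Genes of earlier cells of the lineage mostly had negative log2 fold changes too. All 10 oligodendrocyte precursor genes had negative log2 fold changes (median -0.29), or 8 of 10 without WT replicate 3 (median -0.19). Gpr17, a receptor gene of committed precursors, was at 72.2, 91.5, 123 and 125 CPM in KO/+ libraries, against 150.3, 133 and 182 CPM in WT libraries. The groups did not overlap (log2 change -0.59, SE 0.20; edgeR unadjusted p = 0.0183), and the log2 change without WT replicate 3 was -0.46. The precursor genes Cspg4 and Ptprz1 had log2 fold changes of -0.51 (SE 0.23) and -0.30 (SE 0.12), with overlapping groups. These were -0.45 and -0.17 without WT replicate 3. Of 5 genes of newly formed oligodendrocytes, 4 were negative (median -0.05), or 2 without WT replicate 3. Itpr2, an intracellular calcium channel gene, was at 23.6, 31.8, 34.2 and 42.4 CPM in KO/+ libraries, against 47.1, 45.1 and 51.0 CPM in WT libraries, and the groups did not overlap (log2 fold change -0.53, SE 0.17). Bcas1, a marker of this stage, was at -0.18 (SE 0.17) on the same scale, or 0.03 without WT replicate 3, and 9630013A20Rik, a noncoding gene, at 0.21 (SE 0.26).

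On the axonal side, 10 of 12 genes of the node of Ranvier and its flanking domains were negative (median -0.19), or 8 without WT replicate 3 (median -0.09). Ank3, the ankyrin-G scaffold gene of the node, was at 331, 365, 395 and 467 CPM in KO/+ libraries, against 489, 492 and 476 CPM in WT libraries, and the groups did not overlap (log2 fold change -0.32, SE 0.12). Cntnap1, which anchors the paranodal loops, and the nodal sodium channel gene Scn8a had log2 fold changes of -0.33 (SE 0.15) and -0.31 (SE 0.14). Ank3, Cntnap1 and Scn8a were at -0.33, -0.24 and -0.23 without WT replicate 3. Of 9 genes for receptors of MAG and for enzymes that make the gangliosides it binds, 3 were negative and 6 positive (median 0.04). Pirb, at a low level, was at 0.237 to 0.360 CPM in KO/+ libraries and 0.135 to 0.234 CPM in WT libraries. Its groups did not overlap, with KO/+ higher (log2 fold change 0.74, SE 0.33). By TPM, 1.98% of all genes tested lay apart with KO/+ lower and 1.58% with KO/+ higher. The log2 fold changes of Rtn4rl1 and of Ngfr, a neurotrophin receptor gene, were 0.16 (SE 0.11) and -0.41 (SE 0.37).

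Markers of other cells moved between the libraries as well, and their part in these results was not tested. All 10 cell cycle genes had negative log2 fold changes (median -0.32). The median was -0.66 without WT replicate 3, -0.15 without WT replicate 1 and -0.11 without WT replicate 2. Their summed CPM was 341, 312, 605 and 696 in KO/+ libraries and 752, 777 and 302 in WT libraries. The libraries with the most myelin RNA, WT replicate 3 and KO/+ replicate 2, were the lowest in this sum. All 6 mature granule neuron genes were positive (median 0.30), including Cbln1 at 0.31 (SE 0.13), Slc17a7 at 0.31 (SE 0.15) and Gabra6 at 0.35 (SE 0.20). Their summed CPM was 4212, 3837, 2791 and 3171 in KO/+ libraries and 3068, 2732 and 2797 in WT libraries. KO/+ replicate 3 lay inside the WT range, and the genotypes overlapped in each of the 6 genes. All 6 choroid plexus and all 5 red blood cell genes were positive (medians 1.06 and 0.86), and KO/+ replicate 4 was low for both. Microglial genes split 3 negative to 4 positive, or 0 to 7 without WT replicate 3. Of 11 brainstem genes 1, Tph2, passed the filter, and their summed CPM was 1.26 to 1.86 in KO/+ libraries and 1.18, 1.19 and 7.08 in WT libraries. Of 6 Schwann cell genes 4 were tested, 3 of them negative. Pmp2 was at 0 in 5 libraries, while Drp2, at 23.1 to 28.6 CPM in KO/+ and 29.0 to 33.2 CPM in WT libraries, did not overlap (log2 fold change -0.26, SE 0.10).

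The pattern of the 5 genes over the libraries was then compared with that of all genes. For each of 10514 genes (mean CPM 10 or more), log2 CPM was centred on its mean, and the mean absolute difference from the mean profile of the 5 genes was taken over the 7 libraries. The most alike were Cx3cr1, Cldn11, Tmem125, Gjc3, Il1rap, Tspan2, Trf and Hhip, with differences of 0.05 to 0.07, against a median of 0.35 over all genes compared. Cldn11 encodes the tight junction protein of central myelin, Tspan2 a tetraspanin, Gjc3 a connexin and Trf transferrin, all known from oligodendrocytes, while Cx3cr1 encodes the fractalkine receptor of microglia. Of the 5 genes themselves Mbp was the closest to their mean (0.0367) and Mag the farthest (0.175). Mag was lower than the other 4 in KO/+ replicates 1 to 3 and higher than they were in KO/+ replicate 4 and all WT libraries.

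**Figure D4:**
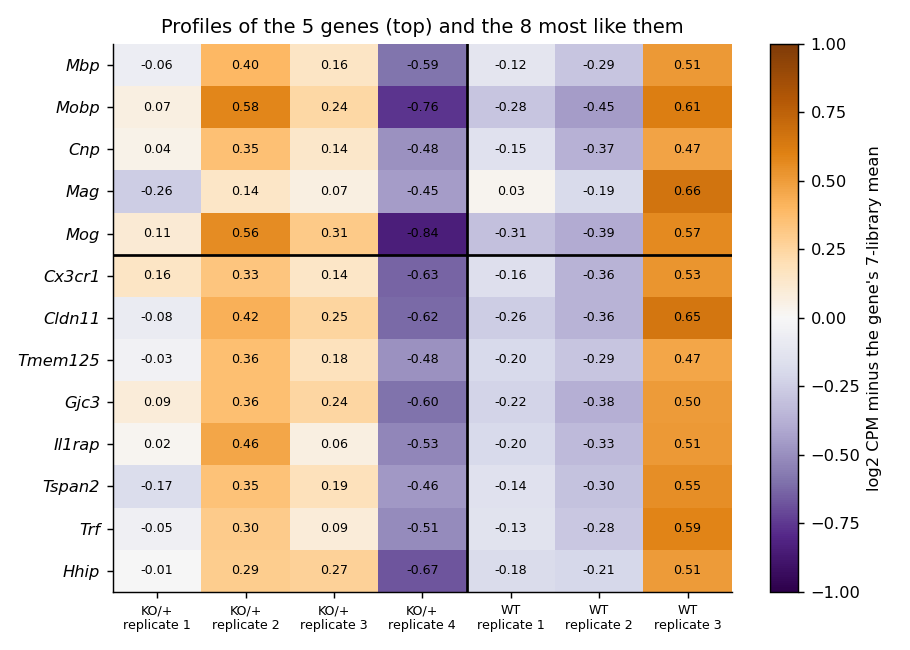
Log2 CPM minus each gene's mean over the 7 libraries (colour and number) for the 5 genes (above the line) and the 8 genes most like them (below), with KO/+ libraries left of WT libraries. All rows are highest in WT replicate 3 and lowest in KO/+ replicate 4, and Mag is at -0.26 in KO/+ replicate 1 and 0.03 in WT replicate 1.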

How the data were processed

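Polyadenylated RNA of 7 P15 mouse cerebella was sequenced with a directional kit, per the labels. Per the submitters' processing notes, which give no roles, the tools were RSEM 1.3.1, STAR 2.5.2a, Trimmomatic 0.39 and bcl2fastq, and the builds named were GRCm38 and mm10. Whether counting used strand is not given in the sources used here. Deposited expected counts are RSEM's estimates of reads per gene or transcript, per the file headers. The deposited TPM values are scaled for transcript length and library, per the file headers. The deposited isoform percentage (percent) is each transcript's share of its gene, per the file headers. The 42 value columns of 6 tables of the whole series were not used.

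Groups were taken from the labels. Expected counts were rounded, filtered with filterByExpr, scaled with TMM and compared between KO/+ and WT with edgeR 4.0.16 (glmQLFit, robust, and glmQLFTest) in R 4.3.3, with no covariate, Benjamini-Hochberg adjustment over all 16813 genes or 44375 transcripts and a threshold of 0.05. Normalised read counts are CPM after TMM, library totals were 29248360 to 43761792, and the common biological coefficient of variation was 18.7%. RSEM's uncertainty in dividing reads between transcripts was not modelled. Isoform use was tested with diffSpliceDGE over 10105 genes, and 3 shares by exact permutation over the 35 ways of labelling the libraries. The steps were tested on simulated counts. No libraries agreed within sampling noise.

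The genes, the lists, the tests and the alternatives were chosen with earlier results of these data known. Named were the 5 genes, their transcripts with a mean of at least 1 TPM, up to 3 genes per list by unadjusted p, the 8 genes most like the 5 in pattern and L3mbtl3, and other transcripts were named after their values were seen. Some genes this rule picks are not reported here. Gene positions and transcript types are from GENCODE M21 (GRCm38), which holds all 55450 gene IDs of the files. Promoters are from RefSeq (GRCm38.p6), with 250 bases before and 50 after the start, and no sequence of Mbp is shown. Alternatives were DESeq2 1.42.0, limma 3.58.1 (voom, or trend on log2(TPM + 1) and log2(TPM + 0.1)), RLE or no scaling factors, other filters, the replicate number as a block and leaving out each library. Leaving out libraries for the list and transcript signs, and Mag transcripts that reach the 3' end as a denominator, were added after seeing the data. Python 3.11.15, SciPy 1.17.1 and matplotlib 3.10.9 were used.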

Additional observations from a re-analysis of the deposited data

Results flagged for a closer look

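Of 78 sets of 4 KO/+ values checked for a library far from the others (by its gap to the nearest divided by the range, at a limit that chance passes in about 1 of 20 sets), 3 stood out, all for KO/+ replicate 4. The golli transcript Mbp-201 made up 0.25% of Mbp transcripts there, against 0.15% to 0.16% in the other KO/+ libraries and 0.16% to 0.22% in WT libraries. Mbp-212, with exon 6 only, made up 18.73% there, against 17.59% to 17.62% in the other KO/+ libraries and 17.57% to 18.05% in WT libraries. The summed CPM of 11 brainstem genes was 1.86 there, against 1.26 to 1.33 in the other KO/+ libraries and 1.18 to 7.08 in WT libraries.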

How the results depend on the processing

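Over all alternatives run, 0 of the 5 genes, 0 of their 25 followed transcripts and 0 of the 4 genes in the isoform usage test were called. Leaving out 1 library gave log2 fold changes of -0.22 to 0.22 for Mbp, -0.086 to 0.47 for Mog, -0.49 to -0.03 for Mag, -0.13 to 0.47 for Mobp and -0.16 to 0.30 for Cnp. It gave 0 to 1 genes called, 0 to 2 transcripts called, 21 to 59 genes called for isoform usage, and a golli share difference of -0.0707 to 0.0197 percentage points. It also turned the direction of 16 transcripts, with log2 fold changes of Cnp-201 -0.088 to 0.33, Cnp-202 -0.53 to 0.053, Cnp-204 -0.28 to 0.32, Mobp-201 -0.40 to 0.12, Mobp-202 -0.24 to 0.29, Mobp-203 -0.46 to 0.48, Mobp-204 -0.11 to 0.57, Mag-201 -0.65 to 1.41, Mag-203 -0.40 to 0.046, Mbp-204 -0.25 to 0.19, Mbp-206 -0.61 to 0.42, Mbp-209 -0.30 to 0.076, Mbp-211 -0.22 to 0.29, Mbp-212 -0.23 to 0.23, Mbp-215 -0.23 to 0.16 and Mog-201 -0.094 to 0.50. For 9 transcripts no library turned it. Limma-trend on log2(TPM + 1) and log2(TPM + 0.1) gave Mobp -0.0024 in both and Cnp -0.023 in both. For all transcripts DESeq2 called 46, and 3 passed with no filter on low counts. Isoform usage was called for 0 genes when transcripts needed a mean of 1 CPM or more and for 0 with limma's diffSplice. The causes were not tested.

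The labels do not say whether replicate numbers pair the samples. Same-numbered libraries deviated from their group means with correlations of 0.223, -0.331 and -0.128 over 10518 genes. Differently numbered libraries had correlations of -0.682 to 0.659. With so few libraries these values cannot decide whether samples shared a litter or batch. With the replicate number as a block, 1 gene was called (0 of the 5), isoform usage was called for 38 genes, and the log2 fold change was 0.13 for Mbp, 0.37 for Mog, -0.18 for Mag, 0.33 for Mobp and 0.19 for Cnp. The block turned 7 transcripts: Cnp-204 to 0.15, Mobp-202 to 0.13, Mobp-203 to 0.22, Mbp-204 to 0.12, Mbp-211 to 0.18, Mbp-212 to 0.11 and Mbp-215 to 0.065. It gave share differences of -0.0684 percentage points for golli, -1.88 for exon 2 and 1.67 for Mag. Low transcripts rest on few counts, and Mag-201 was at 0 in 3 libraries.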
